A study of Penicillium oxalicum with 18 samples.

Results

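The genes described here are those whose transcript level in the filamentous fungus Penicillium oxalicum was higher without nag3 than with it when glucose was the carbon source. They were chosen by group means: M is log2 of the mean FPKM of 3 libraries plus 1, where FPKM is fragments counted relative to gene length and to all mapped fragments of the library, and M of the deletion on glucose had to lie at least 2 above M of the wild type on glucose. A gene was left out if any of the other 4 groups stood 2 or more above the deletion on glucose. This gave 123 of 9226 identifiers with a PDE_ tag, or 1.33%. In all, 132 passed the first condition and 9 of them were removed by the second, while 226 identifiers lay at least 2 lower in the deletion. The glucose libraries chose the members, so their glucose values are a description with no test.

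The wild type was strain 114-2 and the other strain carried a deletion of nag3, described by the labels with no other allele. Mycelium of both was grown for 24 h at 30 °C on 2% glucose (modified Vogel's medium) and then moved for 24 h to modified Mendal's medium. That medium held 2% glucose, 2% N-acetylglucosamine (GlcNAc), or 1% bran with 1% microcrystalline cellulose (bran-cellulose here). Each of the 6 groups had 3 libraries. The labels do not say whether these came from separate cultures or from 1 transformant, so each p-value below reflects only how far these libraries scatter, and that scatter may be technical.

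Glucose is the preferred carbon source of most filamentous fungi, and genes for the use of other substrates are commonly held low on it by carbon catabolite repression. GlcNAc is the sugar unit of chitin, a part of the fungal cell wall, and is taken up and broken down by a pathway of its own. Bran and cellulose are polymers that have to be cut outside the cell before they are taken up. The table gives locus tags and no gene names, the reference gene table is of another strain and shares no identifier with it, and no role is therefore given to any member. For the same reason the deleted gene itself could not be read by name. RNA was taken from whole mycelium, where a change in the share of a cell type and a change of RNA per cell cannot be told apart.

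FPKM sums per library lay between 920824 and 1083828, and no pair of libraries was identical. Read depth per library is not given by the table. Correlations of log2(FPKM + 1) within groups were 0.963 to 0.990. Across genotypes on glucose they were 0.928 to 0.939 for wild-type replicate 1, 0.915 to 0.929 for replicate 2 and 0.886 to 0.902 for replicate 3, so the 3 wild-type glucose libraries were not equally far from the deletion.

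The members ranged from abundant transcripts to some seen in a single library. On the M scale the difference on glucose had a median of 2.63 and ran from 2.01 to 6.96, with 44 members at 3 or more, 23 at 4 or more and 7 at 5 or more. Mean levels in the deletion on glucose were at least 1000 FPKM for 13 members, at least 100 for 37 and under 10 for 34. The lowest deletion library lay above the highest wild-type library for 101 of the 123, while 24.0% of all PDE_ identifiers did so, and nothing is read from that share because the same values chose the members. All 3 wild-type glucose libraries were listed at 0 for 34 members.

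**Figure D1:**
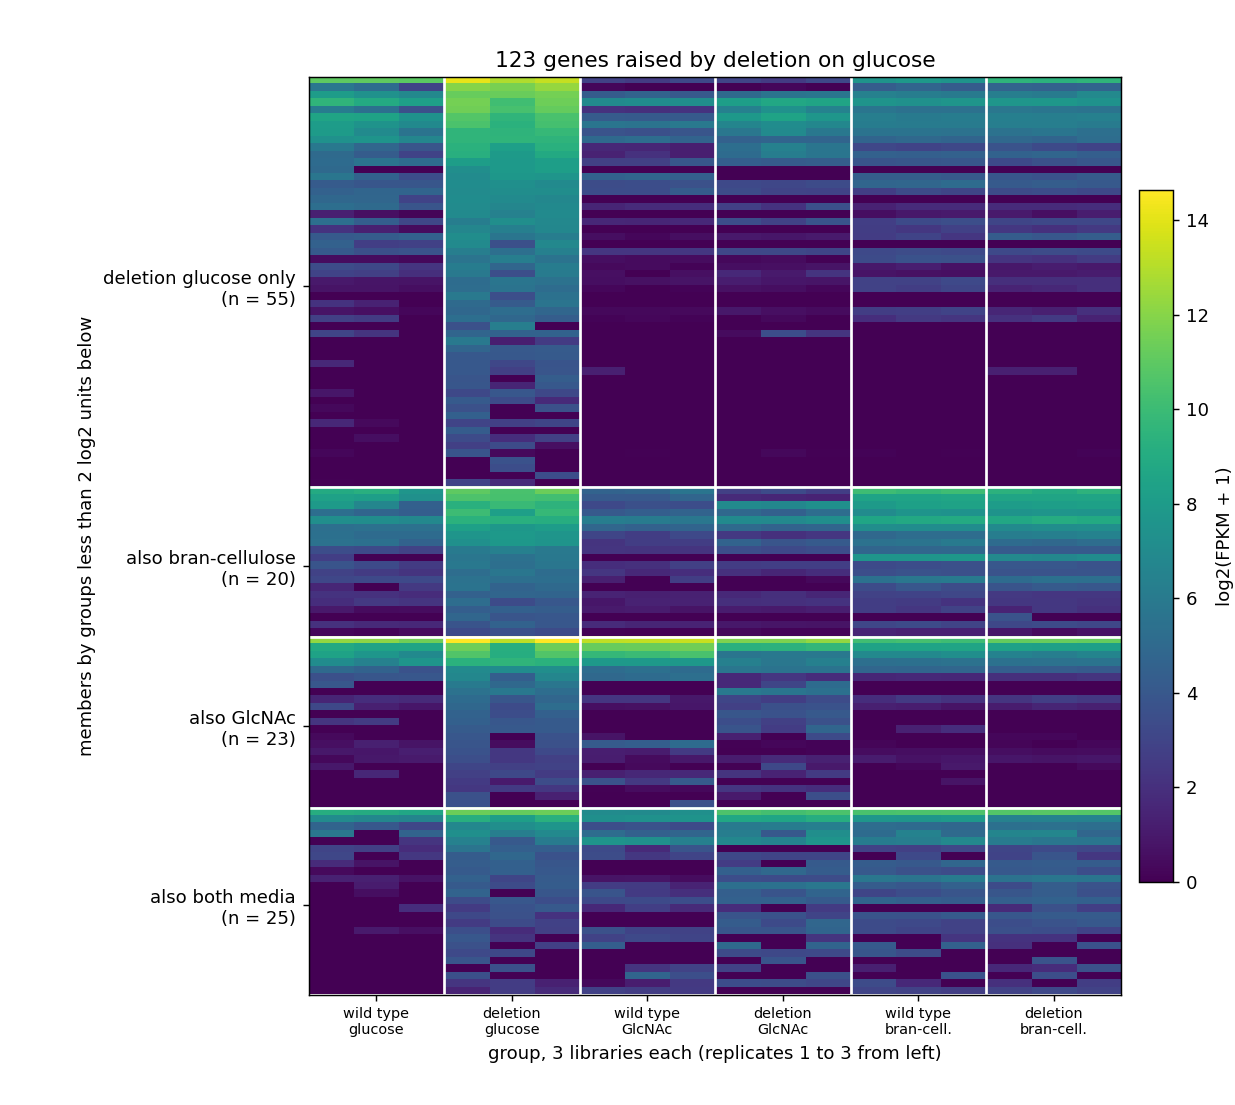
Level of each of the 123 members (rows) in each of the 18 libraries (columns, 3 per group), as log2(FPKM + 1) by colour. Rows are split by the other groups that reached a level less than 2 log2 units below the deletion on glucose, and 55 members reached it in no other group.

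PDE_03922 had the greatest difference. Its wild-type glucose libraries held 54.06, 35.67 and 6.83 FPKM and its deletion glucose libraries 4029.7, 3152 and 5191. Both genotypes were at or near 0 on GlcNAc, where no library exceeded 0.21 FPKM, and between 18.28 and 26.08 on bran-cellulose. The high level was thus seen in 3 of the 18 libraries.

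The highest level of all belonged to PDE_01252. It stood at 4950, 4404 and 2769 FPKM in the wild type on glucose and at 25436, 9355 and 25291 in the deletion. Wild-type libraries on GlcNAc were also high for it, at 9741, 9926 and 10916 FPKM. Deletion replicate 2 lay below all 3 of these and the other deletion glucose libraries above them.

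PDE_07933 followed with 2068, 2132 and 1967 FPKM in the wild type on glucose and 18015, 7645 and 10469 in the deletion. It was at most 8.35 FPKM in all 6 GlcNAc libraries. PDE_04655 went over the glucose libraries from 267.9, 168.4 and 110.9 FPKM to 2382, 2530 and 3109. Neither gene's glucose groups overlapped.

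Some members were listed at or near 0 in the wild type on glucose. PDE_08133 was listed at 0 in 15 libraries and at 58.45, 10.41 and 43.83 FPKM in the deletion on glucose. PDE_09243 was listed at 0 in every library except those of the deletion on glucose (45.05, 56.76 and 36.27 FPKM) and of the deletion on GlcNAc (59.68, 50.05 and 41.12 FPKM). PDE_04016 went from 0.40, 0.38 and 0.25 FPKM to 47.63, 75.94 and 46.99 on glucose.

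**Figure D2:**
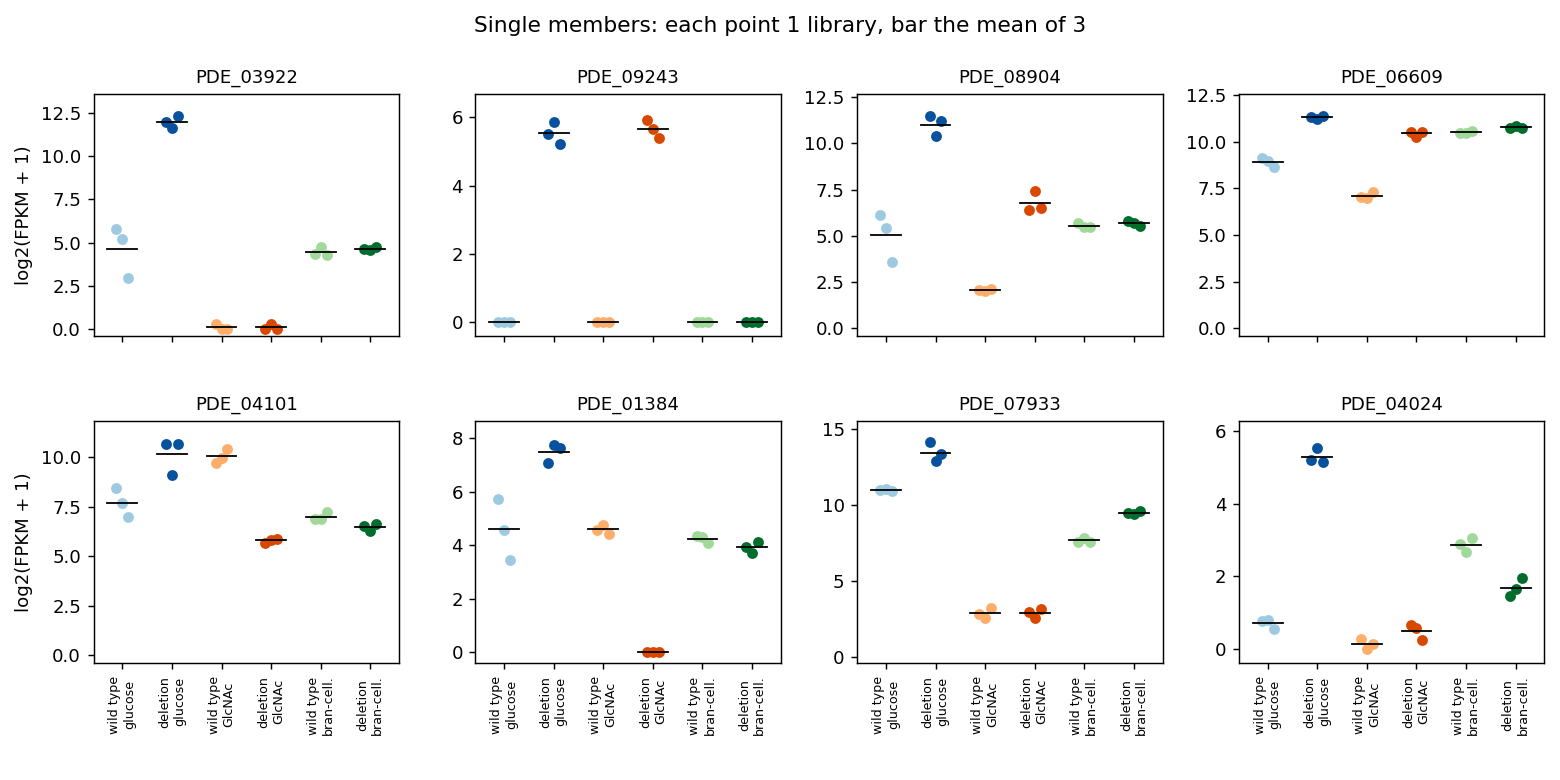
FPKM as log2(FPKM + 1) of 8 members in the 18 libraries, each point 1 library and each bar the mean of the 3 values on that scale. PDE_03922 is high in the deletion on glucose only, PDE_09243 in the deletion on both sugars, and PDE_04101 in the deletion on glucose and the wild type on GlcNAc.

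At the threshold, the members just inside were PDE_00648, PDE_00196 and PDE_02963, with differences of 2.01, 2.02 and 2.02. PDE_02963 held 38.55, 32.98 and 13.53 FPKM in the wild type and 131.6, 103.1 and 120.4 in the deletion, whereas PDE_00196 had 0.05, 0 and 0 against 6.96, 2.43 and 0. Just outside were PDE_01790 (1.99), PDE_06892 (1.98) and PDE_04708 (1.98). Among the 9 that the upper limit removed was PDE_07655, at 58.20, 74.28 and 136.6 FPKM in the deletion on glucose, with at least 1230.5 FPKM in all 6 bran-cellulose libraries.

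Single libraries carried part of the list. For 35 members 1 deletion library held over 50% of the summed FPKM of the 3, and for 11 it held over 90%. PDE_03325 was listed at 12.12 FPKM in deletion glucose replicate 2 and at 0 in the other 17 libraries. PDE_01150 had 12.10 FPKM in deletion glucose replicate 1 and 11.58 in wild-type GlcNAc replicate 3, with 0 elsewhere, and PDE_02562 had 11.07 FPKM in deletion glucose replicate 2 beside scattered values in the other media.

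The libraries of 1 group also differed as wholes. In the wild type on glucose, the median member level on the log2(FPKM + 1) scale was 1.61 in replicate 1, 0.87 in replicate 2 and 0.55 in replicate 3. Of the 89 members with a wild-type glucose value above 0, replicate 1 was the highest for 63, against 33.4% of all PDE_ identifiers with such a value. In the deletion the member medians were 5.13, 4.48 and 4.69, against 4.55, 4.53 and 4.55 over all PDE_ identifiers. Deletion replicate 2 lay below 50% of both other deletion libraries for 29 members, against 4.0% of all PDE_ identifiers. Replicates 1 and 3 did so for 1 and 9 members, against 2.12% and 1.72%. The part of these library differences in the list was not tested. Applying the rule without wild-type replicate 1 gave 146 members, and without deletion replicate 1 it gave 107, the highest and the lowest number when any 1 library was left out.

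A further setting, chosen after seeing the data, left replicates of 1 number out of both glucose groups and chose other sets of genes without them. These sets were then looked at in the libraries left out. Of 132 genes chosen without replicate 1, 109 were at least 1 log2 unit higher in deletion replicate 1 than in wild-type replicate 1, with a median of 2.27, and 6.95% of all PDE_ identifiers were. Of 151 chosen without replicate 2, 107 were so in replicate 2, with a median of 1.77, against 5.16%. For replicate 3 it was 94 of 125, with a median of 2.80, against 8.62%. Each is a comparison of single libraries and carries no test. The sets are not the list of members, and the labels do not say whether the libraries left out came from separate cultures. The shares of all PDE_ identifiers include genes not chosen as higher in the deletion, so they are no matched comparison. The values therefore describe the spread among these libraries only, and nothing is read from them about the members.

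**Figure D3:**
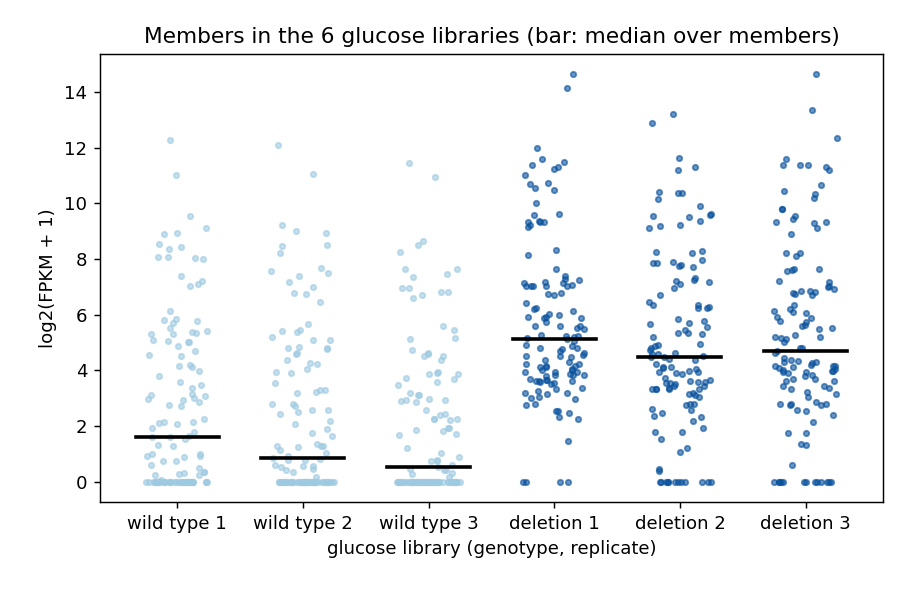
Level of the 123 members as log2(FPKM + 1) in the 6 glucose libraries, each point 1 member, with bars at the medians. The wild-type medians lie at 1.61, 0.87 and 0.55 and the deletion medians at 5.13, 4.48 and 4.69. Each library has some members at 0, and no member is at 0 in all 6.

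Where else the members were expressed divided them. No other group came within 2 on the M scale for 55 members, such as PDE_03922, PDE_07933 and PDE_04655. Only bran-cellulose groups did for 20, only GlcNAc groups for 23 and groups of both media for 25. The deletion on glucose had the highest M of all 6 groups for 100 members. Median M over the members was 4.88 in the deletion on glucose and 1.19 in the wild type on glucose, 1.27 and 2.09 in the wild type and the deletion on GlcNAc, and 2.63 and 2.34 on bran-cellulose. Over all PDE_ identifiers the group medians lay between 4.45 and 4.71.

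Of the 20 members shared with bran-cellulose, 11 were near in both genotypes, 5 in the wild type and 4 in the deletion. PDE_07868 is the most abundant of them. It held 493.1, 590.7 and 199.9 FPKM in the wild type on glucose, 2072, 1372 and 2627 in the deletion on glucose, and 1094, 897.2 and 1099 in the wild type on bran-cellulose. PDE_06929 stood at 327.3, 299.0 and 163.4 FPKM in the wild type on glucose and at 1497, 1325 and 1157 in the deletion on glucose. In the 6 bran-cellulose libraries it stood at 364.3 to 385.8, nearer to the wild type on glucose than to the deletion. PDE_08879 held 635.5, 950.7 and 691.6 FPKM in the deletion on glucose against 254.6, 105.7 and 21.76 in the wild type, and 250.2 to 350.9 on bran-cellulose.

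The 23 members shared with GlcNAc were mostly shared with 1 genotype only, 12 with the deletion and 8 with the wild type. In the first kind, PDE_09243 was on in the deletion on both sugars. In the second kind, PDE_04101 held 341.3, 203.95 and 123.6 FPKM in the wild type on glucose and 1643, 553.8 and 1623 in the deletion, but 844.1, 1005 and 1375 in the wild type on GlcNAc and 49.55, 56.06 and 57.80 in the deletion on GlcNAc. Its genotype difference had opposite signs on the 2 sugars. PDE_03255 was near in both genotypes, at 2660, 577.0 and 2556 FPKM in the deletion on glucose, 2430, 2488 and 2822 in the wild type on GlcNAc and 617.2, 674.8 and 826.9 in the deletion on GlcNAc.

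Of the 25 members shared with both media, 11 were near in all 4 other groups, so that the wild type on glucose was the one group 2 or more below. Part of the 11 were listed at 0 in some deletion glucose libraries, such as PDE_07901 (10.92, 0 and 0 FPKM) and PDE_02562 (0, 11.07 and 0). At such levels little was needed to be near: PDE_02562 held 1.48, 0 and 0 FPKM in the wild type on bran-cellulose. Others, such as PDE_01397 (9.29, 14.43 and 9.94 FPKM), were above 0 in all 3 deletion glucose libraries. PDE_06609 was high in 4 groups: 2557, 2357 and 2641 FPKM in the deletion on glucose, 1493, 1228 and 1464 in the deletion on GlcNAc, and 1402 to 1851 on bran-cellulose. Wild-type libraries held 551.4, 508.9 and 401.1 FPKM on glucose and 131.4, 126.0 and 157.8 on GlcNAc. PDE_03190 was also low in both wild-type sugar groups, with 0.27, 0 and 0 FPKM in the wild type on glucose, 0 in all 3 wild-type GlcNAc libraries and 9.65 to 30.37 in the other 12.

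Deletion and wild type on GlcNAc and on bran-cellulose were compared without any glucose library in the contrast. The groups compared entered the choice of members only through the upper limit. The spread behind each SE and adjusted p was estimated from all 18 libraries, so the glucose libraries that chose the members had a part in it. The test was limma on log2(FPKM + 1) over the 8390 genes that reached 1 FPKM in 3 or more libraries, and a gene "rose" or "fell" where the Benjamini-Hochberg adjusted p was under 0.05 and the log2 difference at least 1 in size. Of the 123 members 111 passed the filter and 12 did not. Of the 111, 17 passed it only because of the deletion glucose libraries, and these could hardly be called in other media. They stay in the counts out of 111, among the members not called and in the medians below.

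On GlcNAc 38 of the 111 rose in the deletion and 15 fell, while 58 were not called. Of all genes tested 16.7% rose and 10.7% fell. The median log2 difference was 0.36 over the members and 0.20 over all genes. The genes that rose reached 1.00 to 5.66 and those that fell -1.20 to -4.59 on the log2(FPKM + 1) scale. After median-ratio scaling, which shifted the median over all genes by -0.24, the members had 28 rises and 15 falls, and of all genes 11.9% rose and 14.4% fell.

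The greatest rises on GlcNAc were those of PDE_09243, PDE_08904, PDE_03190 and PDE_08908. PDE_08904 held 3.22, 3 and 3.40 FPKM in the wild type and 83.02, 168.5 and 89.52 in the deletion (log2 difference 4.69, SE 0.47, limma adjusted p = 5.58e-07). PDE_08908 went from 2.09, 2.02 and 1.35 FPKM to 38.09, 85.22 and 50.34 (4.32, SE 0.42, adjusted p = 4.75e-07). PDE_03190 (adjusted p = 2.38e-10) and PDE_09243 (adjusted p = 6.01e-13) were listed at 0 in the wild type there. The groups did not overlap for any of these 4. In the deletion, PDE_08904 had 1333 to 2828 FPKM on glucose, above its GlcNAc level, while PDE_03190 had 15.29 to 21.24 on glucose and 18.48 to 30.37 on GlcNAc.

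Any fall of a member on GlcNAc is opposite in direction to glucose, because the rule chose members higher in the deletion on glucose. The share of tested members that fell, 13.5%, was near the 10.7% of all genes. PDE_01384 held 131.4, 210.97 and 196.97 FPKM in the deletion on glucose, above 51.75, 22.84 and 10.03 in the wild type. On GlcNAc it was listed at 0 in all 3 deletion libraries and at 22.94, 26.24 and 20.27 in the wild type (adjusted p = 6.64e-08). PDE_00022 fell on GlcNAc from 17.70, 19.87 and 34.09 FPKM to 0.05, 0.21 and 0.10 (log2 difference -4.42, SE 0.61, adjusted p = 1.49e-05). On glucose its groups overlapped, with 13.36, 0.39 and 11.17 FPKM in the deletion and 0.53, 1.42 and 0.74 in the wild type. PDE_04101 fell by 4.25 (SE 0.38, adjusted p = 1.74e-07). PDE_05261 went from 12.60, 4.43 and 17.09 FPKM to 0 in all 3 (adjusted p = 1.58e-05). Among the abundant members PDE_03255 fell by 1.88 (SE 0.40) and PDE_01252 by 1.36 (SE 0.31), and PDE_06929 and PDE_07868 fell by 2.73 (SE 0.22) and 2.11 (SE 0.37).

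Deletion glucose replicate 2 was the lowest of its group for 6 of these 8, PDE_06929 and PDE_01384 being the others. In PDE_01252, PDE_03255 and PDE_04101 it held 9355, 577.0 and 553.8 FPKM, where the other deletion glucose libraries held at least 25291, 2556 and 1623. The highest wild-type glucose libraries were at 4950, 480.3 and 341.3 FPKM, so the groups of these 3 still did not overlap.

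PDE_06609 (log2 difference 3.33, SE 0.12), PDE_05640 (2.63, SE 0.30), PDE_06610 (1.42, SE 0.22) and PDE_08879 (3.58, SE 0.56) rose on GlcNAc as well. PDE_04655 (1.14), PDE_08906 (1.12) and PDE_02963 (1.09) rose near the fold threshold, and under median-ratio scaling they were at 0.90, 0.88 and 0.90 and no longer called. These calls also ended without deletion GlcNAc replicate 3 (PDE_04655 and PDE_02963), deletion GlcNAc replicate 2 (PDE_08906) or wild-type GlcNAc replicate 1 (PDE_02963).

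On bran-cellulose few members were called between the genotypes, though a larger share than of all genes. Of the 111, 3 rose (2.7%) and 5 fell (4.5%), and 103 were not called, while 0.191% of all genes rose and 0.203% fell. The difference between these shares was not tested. The median log2 difference was 0.00 over the members and over all genes. Of the 38 that rose on GlcNAc, 37 were not called on bran-cellulose and 1, PDE_06610, fell there. The 15 that fell on GlcNAc were not called on bran-cellulose. Among them, PDE_01252 held 1153, 1279 and 1102 FPKM in the wild type there and 2346, 2438 and 2344 in the deletion, without overlap. Its log2 difference was 1.01 (SE 0.31, limma adjusted p = 0.296). It was called as higher when the model held the bran-cellulose groups alone (limma adjusted p = 0.0102). The same held without deletion glucose replicate 2 (limma adjusted p = 0.0191).

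PDE_07933, PDE_07934 and PDE_01983 rose on bran-cellulose. PDE_07933 went from 190.1, 229.8 and 191.95 FPKM to 730.5, 684.9 and 768.3 (log2 difference 1.83, SE 0.25, adjusted p = 0.00125). PDE_07934, the next tag, went from 5, 6.67 and 3.98 to 18.15, 14.95 and 18.60 (1.57, SE 0.27, adjusted p = 0.0113). PDE_01983 went from 29.79, 36.12 and 36.95 to 73.22, 77.20 and 88.19 (1.19, SE 0.15, adjusted p = 0.000719). All 3 were without overlap between the genotypes here and on glucose, where PDE_07934 held 16.92, 17.96 and 22.08 FPKM in the wild type and 142.5, 49.90 and 73.54 in the deletion. The call of PDE_07934 ended when the model held the bran-cellulose groups alone (limma adjusted p = 0.0567). It also ended without deletion replicate 1 or 3 or wild-type replicate 1 or 3 on bran-cellulose, and its adjusted p ran from 0.000409 to 0.0789 over 23 alternatives.

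PDE_04016, PDE_06610, PDE_04024, PDE_04029 and PDE_04028 fell on bran-cellulose. PDE_06610 went from 203.4, 194.1 and 233.4 FPKM to 86.89, 90.10 and 89.52 (log2 difference -1.23, SE 0.22, adjusted p = 0.0142). PDE_04016 went from 9.25, 11.84 and 11.35 to 3.85, 3.23 and 4.72 (-1.26, SE 0.18, adjusted p = 0.00174). Their deletion libraries lay below their wild-type libraries without overlap, the reverse of the order on glucose. The calls of PDE_06610 and PDE_04028 were the 2 left of the 5 with a pseudocount of 0.1, or when the model held the bran-cellulose groups alone, and 3 of the 5 were left without deletion replicate 1 or deletion replicate 2 on bran-cellulose. Without wild-type replicate 3 on bran-cellulose, PDE_04016 and PDE_04024 were the 2 left, and PDE_06910, at 14.26, 9.61 and 0 FPKM in the wild type there and listed at 0 in the deletion, was then called as well. That of PDE_06610 ended without any 1 of the deletion libraries or without wild-type replicate 1 or 3 on bran-cellulose, and its adjusted p ran from 0.000247 to 0.0904 over the alternatives.

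**Figure D4:**
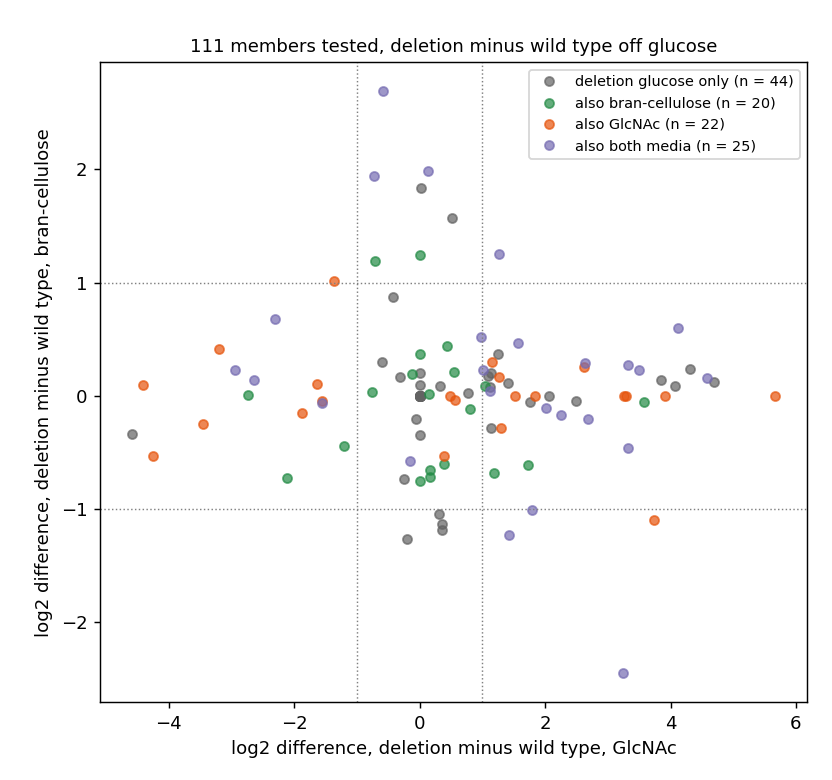
Log2 difference between deletion and wild type on GlcNAc (x axis) and on bran-cellulose (y axis) for the 111 members tested, coloured by the other groups near the deletion on glucose, with dotted lines at 1 and -1. Values spread from -4.59 to 5.66 on GlcNAc, and most lie between the dotted lines on bran-cellulose.

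Bran-cellulose and GlcNAc were also compared within each genotype. In the wild type 46 of the 111 members were higher on bran-cellulose and 11 lower, against 12.2% and 6.53% of all genes, with a median log2 difference of 0.39 over the members and 0.15 over all genes. In the deletion 25 were higher and 16 lower, against 11.4% and 8.75%, with medians of 0.00 and -0.02. PDE_06929 differed by 4.22 (SE 0.22) in the wild type and by 6.96 (SE 0.22) in the deletion, and PDE_07868 by 4.95 (SE 0.37) and 6.33 (SE 0.37). PDE_07933 was higher on bran-cellulose in both genotypes, by 4.80 and 6.61 (SE 0.25 each). PDE_03922 was called in both as well, at 4.36 and 4.56 (SE 0.48 each), although its bran-cellulose level was a small part of that in the deletion on glucose. PDE_01252 was lower on bran-cellulose in the wild type by -3.11 (SE 0.31, adjusted p = 8.94e-07), while in the deletion its difference of -0.74 (SE 0.31, adjusted p = 0.0559) was not called.

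The genotype difference itself was compared between the 2 media. It was higher on GlcNAc than on bran-cellulose for 33 of the 111 members and lower for 17, against 15.3% and 9.80% of all genes. The median of this difference was 0.49 over the members and 0.20 over all genes. PDE_06609, with a rise on GlcNAc and no call on bran-cellulose, was at 3.05 (SE 0.17), and PDE_01252, which fell on GlcNAc, was at -2.37 (SE 0.44).

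Members lay next to each other in tag number. Locus tags are usually numbered along a genome, but positions were not used here. There were 9 runs of 2 or more consecutive tags, which held 25 members or 20.3% of the list, and 16 of the 8538 consecutive pairs in the table were both members. Among 196 non-members numbered 1 before or after a member, 11.7% differed by at least 1 on the M scale on glucose, against 4.21% of all non-members, and the median difference was 0.05 against 0.06.

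The longest run was PDE_04023 to PDE_04029, 7 tags. On glucose all 7 were higher in the deletion without overlap, and they differed in size: PDE_04023 held 45.23, 41.09 and 23.01 FPKM in the wild type and 164.9, 217.99 and 189.2 in the deletion, while PDE_04024 held 0.68, 0.72 and 0.46 and then 36.05, 45.96 and 34.46. PDE_04028 went from 1.02, 0.78 and 0.70 to 35.03, 51.33 and 45.59 FPKM, and PDE_04029 from 0.68, 0.49 and 0.21 to 29.11, 36.15 and 27.09. PDE_04025, PDE_04026 and PDE_04027 had M differences of 3.12, 3.14 and 2.63. The tags on either side were not high: PDE_04022 was above 0 on glucose in 1 library, at 6.61 FPKM in deletion replicate 2, and PDE_04030 was listed at 0 in all 3 deletion glucose libraries. PDE_04021 and PDE_04031 had differences of 0.31 and -0.07.

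The same 7 tags were lower in the deletion than in the wild type on bran-cellulose, in means and without overlap, and 8.90% of all PDE_ identifiers were lower there without overlap. The log2 differences were -0.61 for PDE_04023, -1.19 for PDE_04024, -0.71 for PDE_04025, -0.73 for PDE_04026, -0.60 for PDE_04027, -1.04 for PDE_04028 and -1.13 for PDE_04029. The fall of PDE_04024 (SE 0.17, adjusted p = 0.00217), PDE_04028 (SE 0.16, adjusted p = 0.00294) and PDE_04029 (SE 0.20, adjusted p = 0.0105) passed the test. PDE_04026 (adjusted p = 0.00597) and PDE_04027 (adjusted p = 0.0455) were under the adjusted p threshold but short of the fold threshold. PDE_04024, for instance, held 6.38, 5.30 and 7.39 FPKM in the wild type and 1.73, 2.15 and 2.85 in the deletion. Those of PDE_04024 and PDE_04029 ended with a pseudocount of 0.1 (adjusted p = 0.165 and 0.137, the highest of their alternatives, whose lowest were 0.00166 and 0.00476). The PDE_04029 call also ended without deletion replicate 1 or 2 or wild-type replicate 3 on bran-cellulose, and that of PDE_04028 without wild-type bran-cellulose replicate 3 (log2 difference -0.92).

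On GlcNAc PDE_04023 rose from 3.61, 5.25 and 5.29 FPKM to 23.85, 13.70 and 16.74 (log2 difference 1.72, SE 0.24, adjusted p = 1.58e-05). The other 6 of the run were not called there, with log2 differences between -0.26 (PDE_04026) and 0.39 (PDE_04027). With a pseudocount of 0.1, PDE_04024 was called as higher there, at 1.43 (limma adjusted p = 0.00457, against 0.0818 with a pseudocount of 1). In the wild type all 7 were higher on bran-cellulose than on GlcNAc, by 1.35 (PDE_04025) to 3.20 (PDE_04023).

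Near this run by number, PDE_04015 and PDE_04016 formed another. PDE_04015 held 1.02, 0.33 and 0.39 FPKM in the wild type on glucose and 19.86, 21.35 and 18.88 in the deletion. On bran-cellulose it held 5.29, 3.91 and 6.33 FPKM in the wild type and 1.76, 4.10 and 3.11 in the deletion, where the groups overlapped. PDE_04014 and PDE_04017, on either side, held 8.31 to 12.65 and 10.48 to 16.01 FPKM in the deletion on glucose. In the wild type on glucose they held 8.09 to 11.71 and 5.67 to 7.31. Their M differences were 0.04 and 0.94, and PDE_04017 was higher in the deletion without overlap. Numbered between these runs, PDE_04019 and PDE_04020 had M differences of 1.39 and 0.56.

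**Figure D5:**
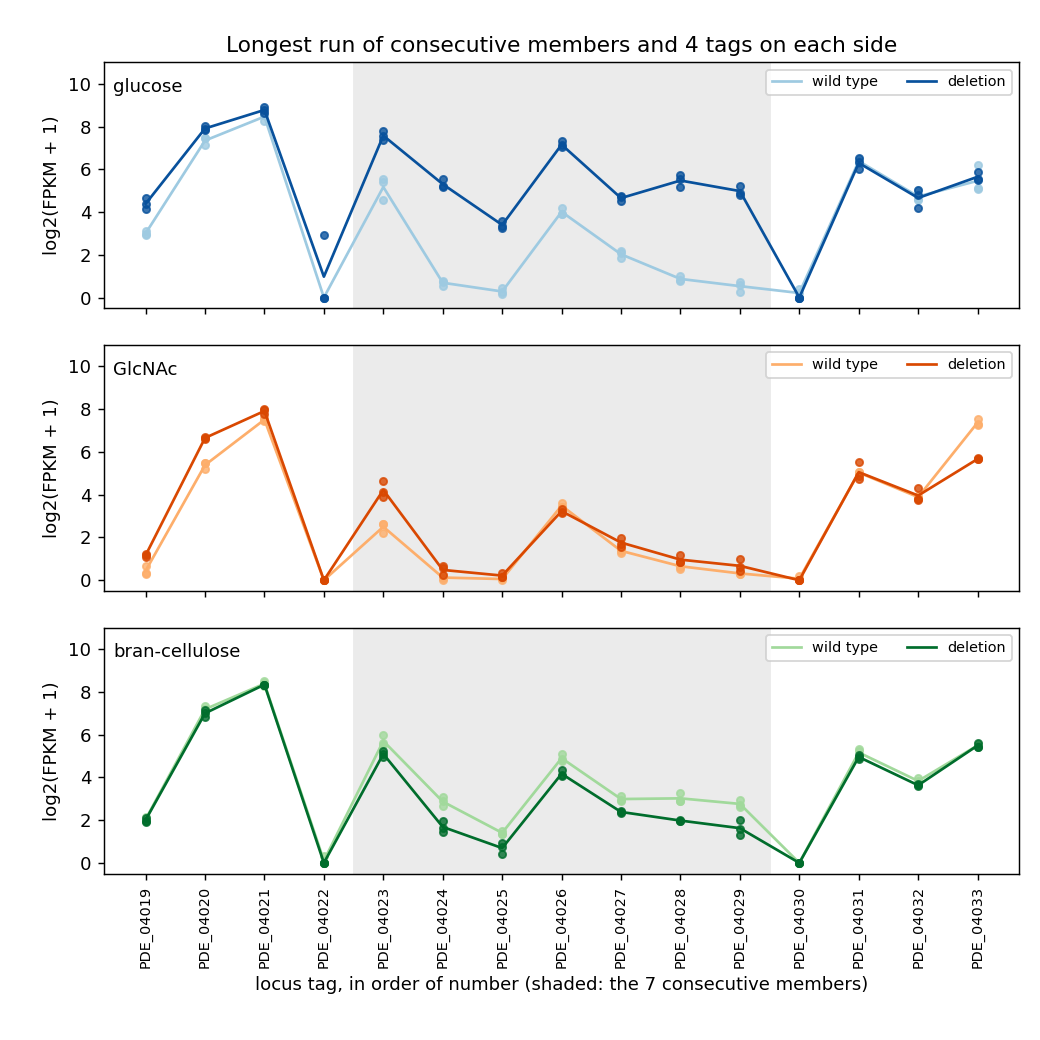
Levels as log2(FPKM + 1) of 15 tags in order of number, with the 7 consecutive members shaded, in the 3 media (points are libraries, lines the means of the 3 values on that scale). In the shaded tags the deletion lies above the wild type on glucose and below it on bran-cellulose, and the 2 tags directly beside them are near 0 apart from 1 deletion library of PDE_04022 on glucose.

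The run PDE_03922 to PDE_03924 was high in the deletion on glucose alone. PDE_03923 went from 1.44, 0.54 and 0.14 FPKM to 128.4, 86.52 and 127.8, and PDE_03924 from 3.40, 1.41 and 0.36 to 104.2, 79.99 and 107.2. Both were listed at 0 in all 6 GlcNAc libraries. PDE_03921 and PDE_03925, beside them, held 93.73 to 112.1 and 79.75 to 87.70 FPKM in the deletion on glucose, against 29.37 to 44.14 and 34.49 to 49.63 in the wild type. They were higher without overlap, but short of the threshold of 2.

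The run PDE_08904 to PDE_08906 was higher in the deletion on both sugars. PDE_08904 held 68.90, 41.65 and 11.02 FPKM in the wild type on glucose and 2828, 1333 and 2322 in the deletion, and PDE_08905 held 32.08, 18.23 and 6.69 and then 597.1, 248.1 and 475.1. On GlcNAc PDE_08905 rose from 1.66, 3.33 and 1.37 FPKM to 33.11, 71.72 and 51.28 (log2 difference 4.07, SE 0.44, adjusted p = 1.39e-06). PDE_08906 rose there by 1.12 (SE 0.27, adjusted p = 0.00204). PDE_08907 was no member, at 660.0, 427.0 and 808.1 FPKM in the deletion on glucose against 243.3, 179.6 and 121.9, and PDE_08908 was a member again. On bran-cellulose the log2 differences of PDE_08904, PDE_08905, PDE_08906 and PDE_08908 were 0.12, 0.09, 0.08 and 0.24, none of them called, with SE between 0.27 and 0.47.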

How the data were processed

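The authors deposited 1 table of FPKM values for 9261 identifiers (9226 PDE_ tags and 35 XLOC_ loci) in 18 libraries, per the file headers, which name each column by library. For aligner, counter, build and annotation the sources used here give nothing. Per the labels, the protocol was that of NlaIII and MmeI tag libraries, for which a value per length is unusual. Gene length cancels when libraries are compared but decides how a gene stands against the pseudocount and the filter. Of 377 low identifiers examined, a median of 50.0% of values above 0 lay within 0.1 of a whole multiple of the lowest. The values compared came from different libraries, whose scaling may differ, so this could not show whether whole reads can be had. Only FPKM were given, and a count model was not used.

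FPKM was used as deposited. Of all identifiers, 8390 had at least 1 FPKM in at least 3 libraries. limma 3.58.1 in R 4.3.3 was fitted to log2(FPKM + 1) with 1 mean per group over 18 libraries, an intensity trend and no block, two-sided, adjusted by Benjamini-Hochberg over 8390 genes. Log2 differences on this scale understate the change of low genes. The fit was tested on simulated data, and figures were drawn with matplotlib 3.10.9. The members, lists and comparisons were chosen with earlier results of these data known.

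Members named are those with the greatest glucose difference, the highest level in the deletion on glucose, the greatest calls on GlcNAc and on bran-cellulose, the most abundant of each pattern, those at the threshold, those in the 3 longest runs and those most tied to 1 library. PDE_04015, PDE_06910, PDE_07901, PDE_01397, the neighbours of runs, PDE_07655 and members set beside these were named after their values were seen. Same-numbered libraries of the groups compared deviated together with correlations from -0.097 to 0.196, so numbers were not taken as pairs. Alternatives were another pseudocount, no filter, median-ratio scaling, a model of the compared groups alone, a replicate block and leaving out each library, and for the rule also the median of 3 libraries and a threshold of 3.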

Additional observations from a re-analysis of the deposited data

Results flagged for a closer look

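The genotype difference differed between GlcNAc and bran-cellulose for part of the members (limma adjusted p under 0.05 and a log2 size of at least 1). This test of the difference itself has no glucose library in its contrast, but its spread was estimated from all 18 libraries. The genotype difference was higher on GlcNAc for 33 of 111 members and lower for 17, against 15.3% and 9.80% of all 8390 genes. The other 61 members were not called. The members named below are those chosen by the naming rule, and other members passed with values in the same range or above it, up to 5.69 (PDE_06910). All values are differences of log2(FPKM + 1) differences, GlcNAc minus bran-cellulose. Higher or lower on GlcNAc refers below to this value, which can come from either medium. The genotype difference of PDE_07933 was 0.02 on GlcNAc and 1.83 on bran-cellulose, and that of PDE_04016 was -0.2 and -1.26.

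Among the named members, those higher on GlcNAc included PDE_09243 (5.66, with the wild type on GlcNAc and both genotypes on bran-cellulose listed at 0), PDE_08904 (4.57), PDE_03190 (4.43), PDE_08908 (4.08), PDE_08905 (3.98) and PDE_08879 (3.63). PDE_06609 (3.05), PDE_06610 (2.65), PDE_05640 (2.34) and PDE_04023 (2.33) were also higher. The other tags of its run that passed were PDE_04024 (1.54), PDE_04029 (1.49) and PDE_04028 (1.35), and PDE_04016 was at 1.06 and PDE_08906 at 1.04.

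Among the named members, those lower on GlcNAc included PDE_00022 (-4.52), PDE_01384 (-4.25), PDE_04101 (-3.72), PDE_05261 (-3.21), PDE_00648 (-2.79), PDE_06929 (-2.74) and PDE_01252 (-2.37). PDE_01983 (-1.91), PDE_07933 (-1.81), PDE_03255 (-1.72), PDE_07868 (-1.39) and PDE_07934 (-1.06) passed as well. The calls of PDE_07868, PDE_07934 and PDE_08906 ended in 10, 9 and 10 of 23 alternatives, and that of PDE_04016 in 4.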

How the results depend on the processing

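The rule gave 123 members. With a pseudocount of 0.1 it gave 234, which held all 123, with a threshold of 3 it gave 44, and leaving out libraries it gave 107 to 146. The median of 3 libraries gave 122, of which 102 were shared. Falls on bran-cellulose numbered 5, and 2 with a pseudocount of 0.1 or in a model of the compared groups alone. Leaving out 1 library gave 3 to 5 falls and 2 to 4 rises on bran-cellulose, and 30 to 39 rises and 13 to 15 falls on GlcNAc. Between bran-cellulose and GlcNAc it gave 45 to 47 higher and 9 to 11 lower in the wild type, and 24 to 28 and 15 to 20 in the deletion. For the difference between the media it gave 31 to 37 and 15 to 19. With the replicate block, 38 members rose and 14 fell on GlcNAc and 3 and 5 on bran-cellulose, and the numbers do not pair the libraries. The cause of these shifts was not tested. No value of a named member changed sign with a call in any alternative. With no read counts, the precision of values near 0 is unknown.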
